A study of Homo sapiens with 3 samples.

Results

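6 genes used as markers of stem-like or slow-cycling melanoma cells, PROM1, CD44, ABCB5, KDM5B, NES and ABCG2, were followed across 3 populations of A375SM, a metastatic human melanoma cell line. They were picked by gene symbol from the 24424 genes of a count table, and all 6 were present. Each population carried a lentiviral vector with a green fluorescent reporter: shPRAME cells had a hairpin that targets PRAME, shBAP1 cells one that targets BAP1, and shEmpty cells served as the control. Reporter-positive cells had been selected as stable populations, and each group was 1 library of messenger RNA. The labels describe the control as a wild-type genotype, while the design text speaks of a non-targeting hairpin, and no time after infection is given. PRAME is a melanoma antigen known to repress signalling by retinoic acid receptors, and BAP1 is a nuclear deubiquitinase that acts on histone H2A.

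Tumours can hold cells with unequal capacity to start a new tumour, and melanoma has been a test case for that idea. PROM1 encodes CD133, a membrane protein of cell protrusions used to sort stem and progenitor cells. CD44 encodes the main cell-surface receptor for hyaluronan, NES the intermediate filament protein nestin of neural progenitors, and ABCB5 and ABCG2 encode ATP-driven exporters of drugs and other compounds. KDM5B, also called JARID1B, encodes a demethylase of histone H3 lysine 4, and its product marks a slow-cycling fraction in melanoma cultures. These markers define overlapping rather than identical cells, and none is exclusive to melanoma.

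The libraries held 18456328 counts (shPRAME), 14181829 counts (shBAP1) and 19430130 counts (shEmpty). Counts scaled to library size are given in CPM. As 1 library per group allows no test, the words higher and lower are kept for genes with a mean count of 50 or more, a 2-fold or larger ratio of scaled counts and a 95% counting interval (exact) that did not include a ratio of 1. They describe 3 libraries and not the effect of a hairpin, since counting error is the only error the intervals hold. PRAME stood at 32.9% of shEmpty in shPRAME and BAP1 at 35.2% of shEmpty in shBAP1. Among markers of the melanocyte lineage, chosen after their values were seen, SOX10 had 12019 counts in shPRAME, 5442 in shBAP1 and 9482 in shEmpty, while the pigment cell antigens PMEL (8, 34 and 6) and MLANA (7, 19 and 3), in the same order, had few counts. The pigment enzyme genes had most of their counts in shBAP1, with DCT at 6, 1668 and 192 counts, TYR at 0, 573 and 4 and TYRP1 at 1, 1037 and 0 in that order.

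The promoters of PROM1, KDM5B and NES, the members called in at least 1 comparison below, are shown here beside their RNA values. They are the 250 bases upstream of gene starts in RefSeq (GRCh38.p14), matched by symbol for 5 of the 6 members (all but ABCB5), and that build is newer than the one of the counts. PROM1 had 4 such starts and the 2 windows richest in CG are printed, both on the minus strand, at chr4:16083730-16083979 and chr4:16083337-16083586. KDM5B (minus strand, chr1:202808422-202808671) and NES (minus strand, chr1:156677408-156677657) had 1 start each. Capitals mark GGGCGG, the core of the GC box, CACGTG, an E-box, and AGGTCA, a nuclear receptor half-site, searched on both strands, and adjoining GGGCGG matches may overlap.
PROM1, CG-richest window: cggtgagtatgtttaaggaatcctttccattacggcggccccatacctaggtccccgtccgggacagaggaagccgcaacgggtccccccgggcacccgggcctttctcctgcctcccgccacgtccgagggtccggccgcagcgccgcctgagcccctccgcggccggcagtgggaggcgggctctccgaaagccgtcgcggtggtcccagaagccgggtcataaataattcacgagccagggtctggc
PROM1, second window: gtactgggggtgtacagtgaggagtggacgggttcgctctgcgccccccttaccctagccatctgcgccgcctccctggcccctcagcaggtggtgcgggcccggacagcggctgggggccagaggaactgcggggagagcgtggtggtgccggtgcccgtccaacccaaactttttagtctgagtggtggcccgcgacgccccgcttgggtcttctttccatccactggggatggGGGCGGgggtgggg
KDM5B: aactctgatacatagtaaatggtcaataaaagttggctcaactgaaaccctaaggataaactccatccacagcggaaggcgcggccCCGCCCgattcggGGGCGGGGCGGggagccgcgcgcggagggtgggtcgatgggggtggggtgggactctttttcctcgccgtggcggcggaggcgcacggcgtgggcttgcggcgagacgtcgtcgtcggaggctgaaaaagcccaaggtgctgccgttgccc
NES: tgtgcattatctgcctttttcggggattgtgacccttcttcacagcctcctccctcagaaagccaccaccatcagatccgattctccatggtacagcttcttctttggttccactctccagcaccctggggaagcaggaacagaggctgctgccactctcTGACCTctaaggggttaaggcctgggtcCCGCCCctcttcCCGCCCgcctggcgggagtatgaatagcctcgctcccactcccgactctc
The printed PROM1 windows, chosen for their CG pairs, held 26 and 17 of them and the other 2 PROM1 windows 13 and 5, the KDM5B window 27 and the NES window 8, against a median of 11 over 35116 windows of the same length. GGGCGG was found 0 times in the CG-richest PROM1 window, 1 time in the second, 3 times in KDM5B and 2 times in NES, and 42.6% of all windows held it. AGGTCA was found 1 time in NES and in no printed PROM1 or KDM5B window (12.1% of all windows), and CACGTG in none of the 4 (6.34%). These matches describe letters only.

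PROM1 was the one member called in either knockdown against shEmpty, and it was lower in both. In shPRAME 1 of the 6 members was lower, none was higher, 4 passed in neither direction and ABCB5 was below the count minimum, where 9.08% of the 11955 genes measured in that comparison were lower and 10.2% higher. In shBAP1, too, 1 member was lower, none higher and 4 neither, where 8.56% of the 11956 measured genes were lower and 5.53% higher. Both comparisons share the shEmpty library. Set against shBAP1, the shPRAME library had KDM5B and NES higher and PROM1 lower, with 14.2% of all measured genes higher and 10.9% lower. The median log2 ratio of the 5 measured members was 0.16 in shPRAME against shEmpty, -0.47 in shBAP1 against shEmpty and 0.63 in shPRAME against shBAP1, beside -0.06, -0.03 and -0.06 over all measured genes.

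**Figure D1:**
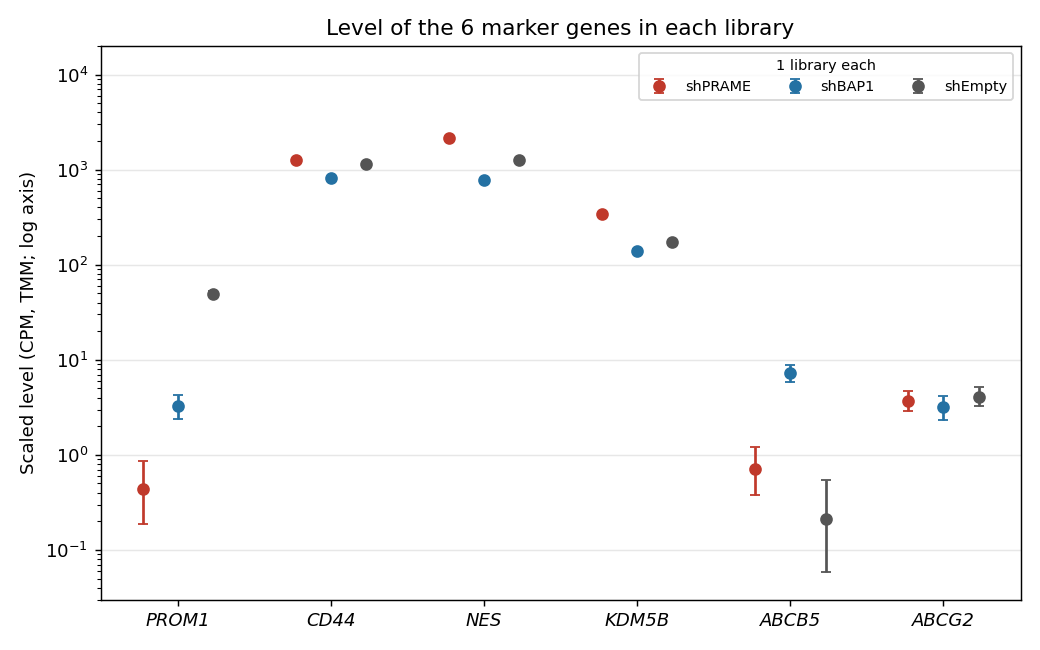
Level of each marker gene in CPM (log axis), with shPRAME left, shBAP1 in the middle and shEmpty right, 1 library each; bars are exact 95% Poisson intervals and are hidden by the point where narrow. PROM1 was at 49.8 CPM in shEmpty only, ABCB5 was highest in shBAP1 at 7.21 CPM, and ABCG2 lay between 3.17 and 4.11 CPM in all 3.

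Among the surface markers, PROM1 spanned the widest range. It had 8 counts in shPRAME, 48 in shBAP1 and 933 in shEmpty, which is 0.438 CPM (0.189 to 0.862), 3.23 CPM (2.38 to 4.29) and 49.8 CPM (46.7 to 53.1). The shEmpty library was thus the only one with an appreciable level, and no intervals overlapped. PROM1 was 114-fold lower in shPRAME (57.5 to 264), and 5 of the 11955 measured genes had a lower ratio. It was 15.4-fold lower in shBAP1 (11.5 to 21.0), where 60 of 11956 genes had a lower ratio. In each comparison PROM1 met the count minimum only through shEmpty, the library where it was high. Directly, it was 7.39-fold lower in shPRAME than in shBAP1 (3.47 to 18.1), a comparison of 8 with 48 counts. With 1 CPM added to each level that log2 ratio was -1.56, beside -2.89. In bulk RNA, fewer PROM1-positive cells and less PROM1 RNA per cell cannot be told apart.

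CD44 was abundant in every library. It had 23148 counts in shPRAME, 12165 in shBAP1 and 21244 in shEmpty, or 1266 CPM, 819 CPM and 1134 CPM. The ratio was 1.12 in shPRAME against shEmpty (1.10 to 1.14) and 0.723 in shBAP1 against shEmpty (0.707 to 0.739), both within the 2-fold limit. Between the knockdowns the ratio of shPRAME to shBAP1 was 1.55 (1.51 to 1.58), also within it. The counts are per gene, so the standard and variant isoforms of CD44 were not told apart.

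NES, the filament marker, was the most abundant member. It had 39046 counts in shPRAME, 11529 in shBAP1 and 23656 in shEmpty, or 2136 CPM, 777 CPM and 1263 CPM. The 3 libraries were ordered with shPRAME highest and shBAP1 lowest, without overlap of counting intervals. The ratio was 1.69 in shPRAME against shEmpty (1.66 to 1.72) and 0.615 in shBAP1 against shEmpty (0.602 to 0.629), so neither reached 2-fold. NES was 2.75-fold higher in shPRAME than in shBAP1 (2.69 to 2.81).

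KDM5B, the slow-cycling marker, had 6206 counts in shPRAME, 2087 in shBAP1 and 3239 in shEmpty, or 339 CPM, 141 CPM and 173 CPM. It was thus highest in shPRAME. The ratio to shEmpty of 1.96 in shPRAME (1.88 to 2.05) lay just short of the 2-fold limit, and it passed that limit with scaling by total counts or upper quartiles. In shBAP1 the ratio was 0.813 (0.769 to 0.860). KDM5B was 2.41-fold higher in shPRAME than in shBAP1 (2.30 to 2.54).

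Of the 2 exporters, ABCB5 was scarce and ABCG2 was low. ABCB5 had 13 counts in shPRAME, 107 in shBAP1 and 4 in shEmpty, or 0.711 CPM (0.379 to 1.22), 7.21 CPM (5.91 to 8.71) and 0.213 CPM (0.0582 to 0.547). Its mean count of 41.3 kept it out of the calls. Its ratio in shBAP1 was 33.8 against shEmpty (12.8 to 126), and with the minimum at 10 it would have been called higher there, a pass that it owed to shBAP1 itself. In shPRAME the ratio to shEmpty was 3.33 with a wide interval (1.03 to 14.0). Between the knockdowns, the ratio of shPRAME to shBAP1 was 0.0987 (0.0509 to 0.176). ABCG2 had 68 counts in shPRAME, 47 in shBAP1 and 77 in shEmpty. Its ratios were 0.905 in shPRAME (0.643 to 1.27) and 0.770 in shBAP1 (0.524 to 1.12) against shEmpty, and 1.17 in shPRAME against shBAP1 (0.798 to 1.74). A difference in ABCG2 was not detectable at this depth in any comparison.

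**Figure D2:**
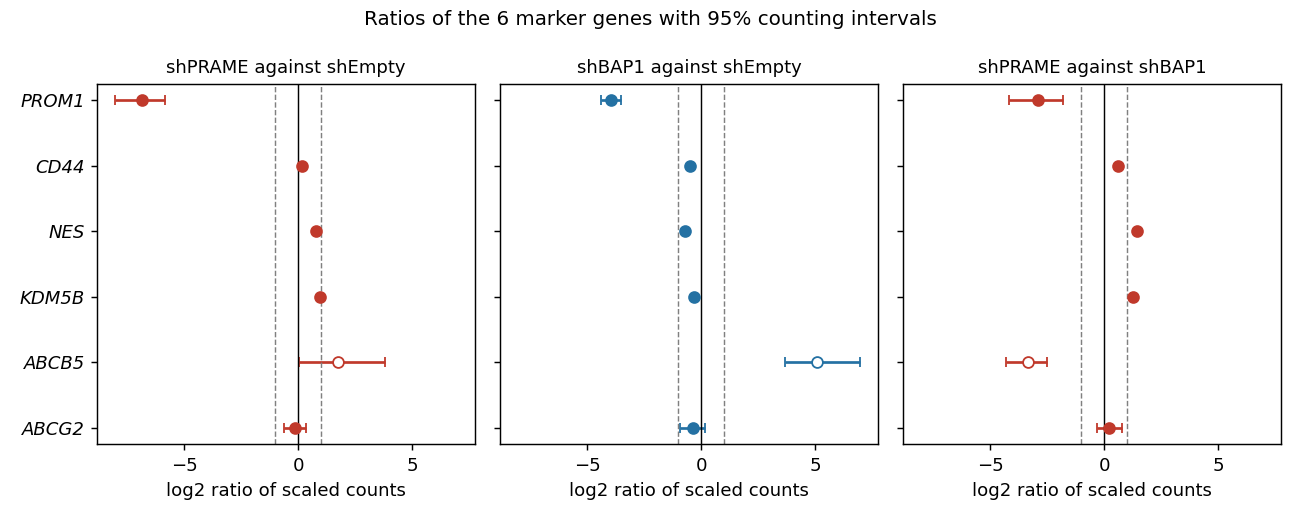
log2 ratio of scaled counts of each marker gene in the 3 comparisons, with exact 95% counting intervals; dashed lines mark 2-fold, and open points mark ABCB5, which was below the count minimum. PROM1 lies left of the limit in all 3 panels, and KDM5B and NES lie right of it only in shPRAME against shBAP1.

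Between genes, levels were compared per kilobase of exon (GENCODE release 29 by symbol, all basic transcripts merged). In shPRAME the order in CPM per kilobase was NES (384), CD44 (207), KDM5B (24.2), ABCG2 (0.773), PROM1 (0.0984) and ABCB5 (0.0900), and the last pair overlapped in their counting intervals. In shBAP1 it was NES (140), CD44 (134), KDM5B (10.0), ABCB5 (0.913), PROM1 (0.727) and ABCG2 (0.658), and the last 3 overlapped as neighbours. In shEmpty it was NES (227), CD44 (186), KDM5B (12.3), PROM1 (11.2), ABCG2 (0.854) and ABCB5 (0.0270), where the intervals of KDM5B (11.9 to 12.8) and PROM1 (10.5 to 11.9) met at their bounds. PROM1 therefore stood beside KDM5B in shEmpty and beside the scarce exporters in both knockdown libraries.

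Genes with the most similar profile were sought by Euclidean distance over the 3 libraries, on centred log2 CPM. For PROM1 the nearest was NSG1, which encodes an endosomal protein of neurons, at 0.45 log2 units, with 12 counts in shPRAME, 37 in shBAP1 and 855 in shEmpty. The homeobox gene EMX2 (0, 15 and 229 counts in the same order, distance 0.77) and SPON2, which encodes a secreted matrix protein (95, 237 and 2343 counts, distance 0.92), came next. NSG1 and EMX2, like PROM1, met the count minimum only through shEmpty. 1 gene in all lay within 0.5 log2 units of PROM1. The other measured members had many close genes, 961 within 0.5 log2 units for NES, 1222 for KDM5B, 3268 for CD44 and 4701 for ABCG2. The nearest to NES were PTOV1, NIPAL1 and DIP2C, to KDM5B were ZNF579, DNM1P41 and LTBP4, to CD44 were ADO, AP5B1 and SSBP4, and to ABCG2 were ARHGAP12, DYNLRB1 and KDELR3. With 3 libraries such likeness is a description.

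The members lie on chromosomes 4 (PROM1 and ABCG2), 11 (CD44), 7 (ABCB5) and 1 (KDM5B and NES). The 10 measured genes nearest to PROM1 along chromosome 4 had a median log2 ratio of -0.35 in shPRAME and -0.27 in shBAP1 against shEmpty, far from the values of PROM1 itself (-6.83 and -3.94). Of these 10, 2 were lower and none higher in each of the comparisons with shEmpty. Over all measured genes 9.08% were lower and 10.2% higher in shPRAME, and 8.56% and 5.53% in shBAP1. FGFBP2, a neighbour singled out after its values were seen, overlaps PROM1 on the same strand in GENCODE and had 102 counts in shPRAME, 49 in shBAP1 and 227 in shEmpty. Like PROM1, it was lower in both knockdown libraries against shEmpty (log2 ratios of -1.12 in shPRAME and -1.88 in shBAP1). How reads shared by FGFBP2 and PROM1 were assigned is not given in the sources used here. Around ABCB5, 4 of 10 neighbours were higher in shBAP1 against shEmpty and 1 was lower, where 5.53% of all measured genes were higher and 8.56% lower. Of these neighbours, singled out after their values were seen, CDCA7L had 2 counts in shPRAME, 176 in shBAP1 and 3 in shEmpty, and RAPGEF5 had 214, 351 and 95. CDCA7L reached the count minimum, and with it a place among the neighbours, only through shBAP1. Chromosome 7 as a whole had a median log2 ratio of 0.14 in shBAP1 and 0.39 in shPRAME against shEmpty. None of the 10 neighbours of KDM5B or of NES was higher in shPRAME against shEmpty, where 10.2% of all measured genes were. In the same comparison 2 neighbours of KDM5B and none of NES were lower, where 9.08% of all measured genes were. The median of chromosome 1 was -0.07.

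**Figure D3:**
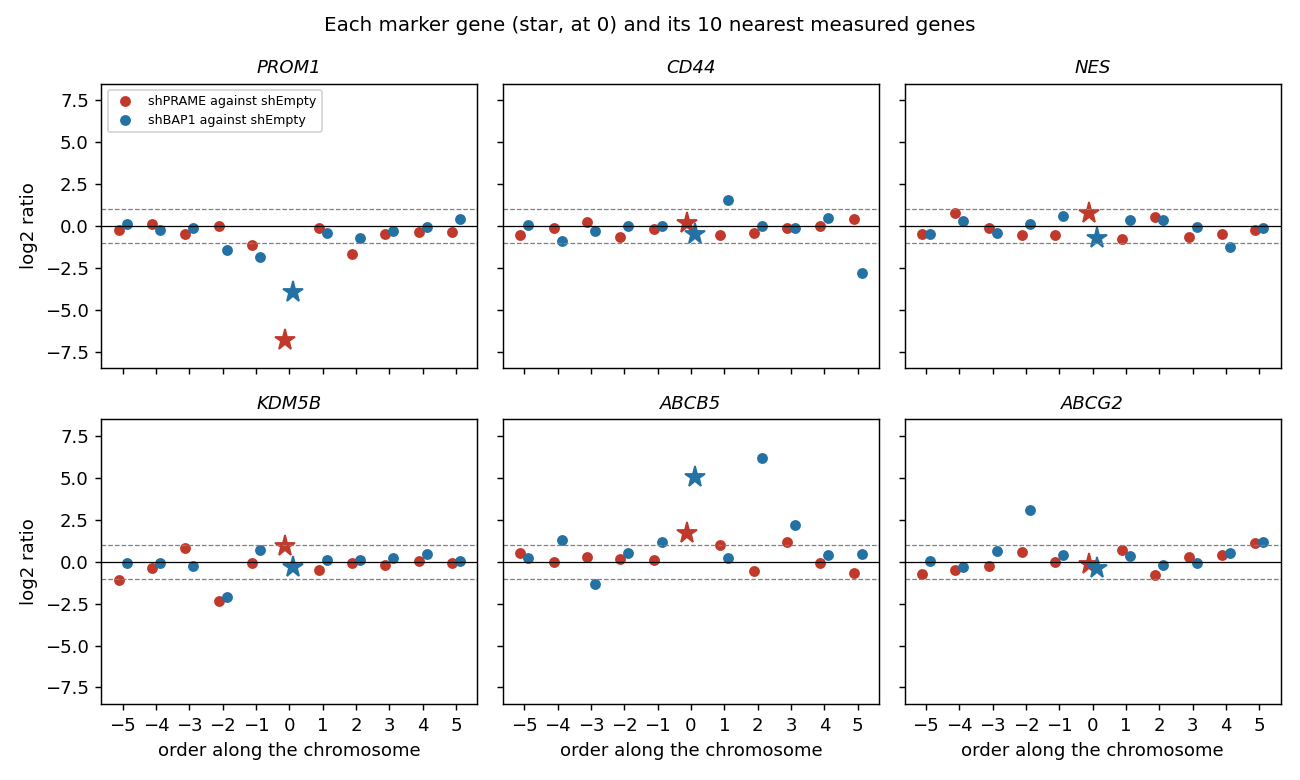
log2 ratio against shEmpty for each marker gene (star) and its 10 nearest measured genes (points) in chromosome order, with shPRAME in red and shBAP1 in blue; dashed lines mark 2-fold. PROM1 lies far below its neighbours in both comparisons, and beside ABCB5 the gene CDCA7L lies at 6.21 in shBAP1. CDCA7L met the count minimum only through shBAP1.

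The members were set beside 9 lists of related genes, described by counts and medians. Of all measured genes, 10.2% were higher and 9.08% lower in shPRAME against shEmpty, and 5.53% and 8.56% in shBAP1 against shEmpty. For shPRAME against shBAP1 the shares were 14.2% higher and 10.9% lower. The list of other stem and tumour-initiating cell markers had 21 of 37 genes measured. In shPRAME 3 were higher and 5 lower against shEmpty, with a median log2 ratio of 0.24. LGR4, an R-spondin receptor, was 18.6-fold lower, the surface glycoprotein CD200 15.4-fold lower and the aldehyde dehydrogenase ALDH1A1 5.68-fold lower. LIN28B, a repressor of let-7 microRNAs, had 22 counts in shPRAME and 0 in shEmpty. It was at least 5.61-fold higher by the lower limit of its counting interval, and 7.52-fold at a floor of 3 counts. In shBAP1 against shEmpty the list had 5 higher and 2 lower genes and a median of 0.26. LIN28B (447 counts in shBAP1) was at least 152-fold higher in shBAP1 than in shEmpty by that limit, and 188-fold at that floor. NGFR, the nerve growth factor receptor CD271 that is also used to sort tumour-initiating melanoma cells, was higher by 134-fold in the same comparison (70.1 to 293). NGFR had 34 counts in shPRAME, 953 in shBAP1 and 9 in shEmpty, and its ratio in shPRAME to shEmpty was 3.87 (1.82 to 9.18). LIN28B and NGFR, both counted among the 3 higher genes in shPRAME, reached the count minimum through their counts in shBAP1. In shPRAME against shBAP1 the list had 3 higher and 8 lower genes and a median of -0.49, which was 0.03 with a count minimum of 200. Of the members not measured, SOX2, chosen after its values were seen, had 12 counts in shPRAME, 50 in shBAP1 and 87 in shEmpty. KIT, ALDH1A2 and SALL4, also chosen after, had no count in any library.

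Growth-related lists bear on the slow-cycling label of KDM5B. Beside them, 9.08% of all measured genes were lower and 10.2% higher in shPRAME, and 8.56% lower and 5.53% higher in shBAP1, against shEmpty. Of 22 proliferation genes 20 were lower in shPRAME and none higher, with a median of -1.58, and 5 were lower and none higher in shBAP1, with a median of -0.68. In shPRAME against shBAP1 7 were lower and none higher (median -0.75). RRM2, a subunit of ribonucleotide reductase, was 11.7-fold lower in shPRAME, the mitotic regulator FOXM1 4.50-fold, cyclin E2 (CCNE2) 4.46-fold and AURKA 4.32-fold. TYMS and CDK1 were 3.18-fold and 2.80-fold lower in shBAP1. Of 28 measured slow-cycling and quiescence genes 5 were higher and 4 lower in shPRAME (median 0.27). The kinase gene DYRK1B was 6.19-fold higher, the antiproliferative gene BTG2 5.07-fold and YPEL3 5.01-fold, while PPARGC1A, whose product drives mitochondrial biogenesis, was 14.1-fold lower in shPRAME and 2.28-fold higher in shBAP1. DYRK1B (145 counts in shPRAME, 28 in shBAP1 and 24 in shEmpty) reached the count minimum only through shPRAME. In shBAP1 3 were higher and 2 lower (median 0.02), among them TXNIP (2.33-fold higher) and GAS6 (2.67-fold lower), which were 3.51-fold higher and 2.32-fold lower in shPRAME. The shPRAME library thus had the highest KDM5B level and the lowest proliferation genes, and whether the 2 are linked was not tested.

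Partners of CD44 were called in both directions. Of 21 measured genes 5 were higher and 2 lower in shPRAME (median 0.10), and 3 were higher and 6 lower in shBAP1 (median -0.24). Over all measured genes 19.3% and 14.1% were called in either direction in these comparisons with shEmpty. CEMIP, which takes part in hyaluronan breakdown, had 5923 counts in shPRAME, 333 in shBAP1 and 944 in shEmpty, and was 6.43-fold higher in shPRAME and 2.25-fold lower in shBAP1. HAS2, a hyaluronan synthase, had 1033, 90 and 283 counts in that order, 3.74-fold higher in shPRAME and 2.49-fold lower in shBAP1. The matrix proteoglycan gene VCAN was 2.46-fold higher in shPRAME and 3.74-fold higher in shBAP1. ESRP1, a splicing factor known to promote variant CD44 exons, was 11.5-fold lower in shPRAME. In shBAP1 SPP1, which encodes the CD44 ligand osteopontin, was 8.69-fold higher, and the scaffold gene IQGAP1 was 4.25-fold lower.

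Kin of the exporters were read beside ABCB5 and ABCG2. Of 24 other genes of the ABCB, ABCC and ABCG subfamilies 11 were measured. In shPRAME 1 was higher and 1 lower (median -0.03, a sign that changed with scaling by total counts or upper quartiles), and in shBAP1 1 was higher and none lower (median 0.28), where 19.3% and 14.1% of all measured genes were called in either direction. ABCC2, an exporter of organic anions, had 845 counts in shPRAME, 3139 in shBAP1 and 115 in shEmpty, which made it 7.53-fold higher in shPRAME and 34.5-fold higher in shBAP1. ABCC4 was 3.44-fold lower in shPRAME. ABCB6 and ABCB10 had ratios of 1.97-fold and 1.90-fold downward in shPRAME and ABCC10 of 1.81-fold upward in shBAP1, all within the limit. ABCB4, a gene of the same subfamily as ABCB5 chosen after its values were seen, had 1 count in shPRAME, 19 in shBAP1 and 1 in shEmpty. How reads that fit more than 1 gene were counted is not given in the sources used here.

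The remaining lists concern KDM5B, NES and PROM1 and drug-tolerant states. Beside them, 19.3% of all measured genes were called in either direction in shPRAME and 14.1% in shBAP1 against shEmpty. Of 25 enzymes and cofactors of histone H3 lysine 4 methylation none was higher and 2 were lower in shPRAME (median -0.17, or 0.05 with chromosome medians subtracted), RBBP5 (2.59-fold) and CXXC1 (2.10-fold), and 1 was lower in shBAP1 (median -0.14), ASH2L (2.81-fold). Of 14 measured filament genes and regulators of NES 2 were higher and 3 lower in shPRAME (median -0.50). Lamin B1 (LMNB1) was 4.77-fold lower, the transcription factor gene TFAP2A 3.37-fold and the filament gene SYNM 2.72-fold, while the keratin KRT8 was 4.48-fold higher. KRT8 (166 counts in shPRAME, 47 in shBAP1 and 38 in shEmpty) reached the count minimum only through shPRAME. In shBAP1 2 were higher and none lower (median 0.18), NEFL (3.63-fold) and TFAP2A (3.13-fold). Of 11 measured kin and membrane raft partners of PROM1 1 was lower in shPRAME (median 0.05), TTYH2 (11.3-fold), and in shBAP1 TTYH2 was 2.11-fold higher and the deacetylase gene HDAC6 2.43-fold lower (median -0.14). Of 14 measured markers of neural crest stem-like and starved-like drug-tolerant states 3 were higher and 2 lower in shPRAME (median 0.17). The fatty acid transporter CD36 was 10.1-fold higher, the adhesion molecule gene CADM1 3.65-fold lower and the nuclear receptor gene RXRG 2.93-fold lower. In shBAP1 5 were higher and 4 lower (median 0.16). L1CAM was 40.0-fold higher there, CD36 9.01-fold and CADM1 4.58-fold, and RXRG was 2.82-fold lower. This list shares 3 genes with the stem cell list, NGFR and L1CAM among them. NGFR (34 counts in shPRAME, 953 in shBAP1 and 9 in shEmpty) had the largest ratio of this list in shBAP1 against shEmpty, 134-fold higher. It was also among the 3 higher genes in shPRAME, and it reached the count minimum only through shBAP1.

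**Figure D4:**
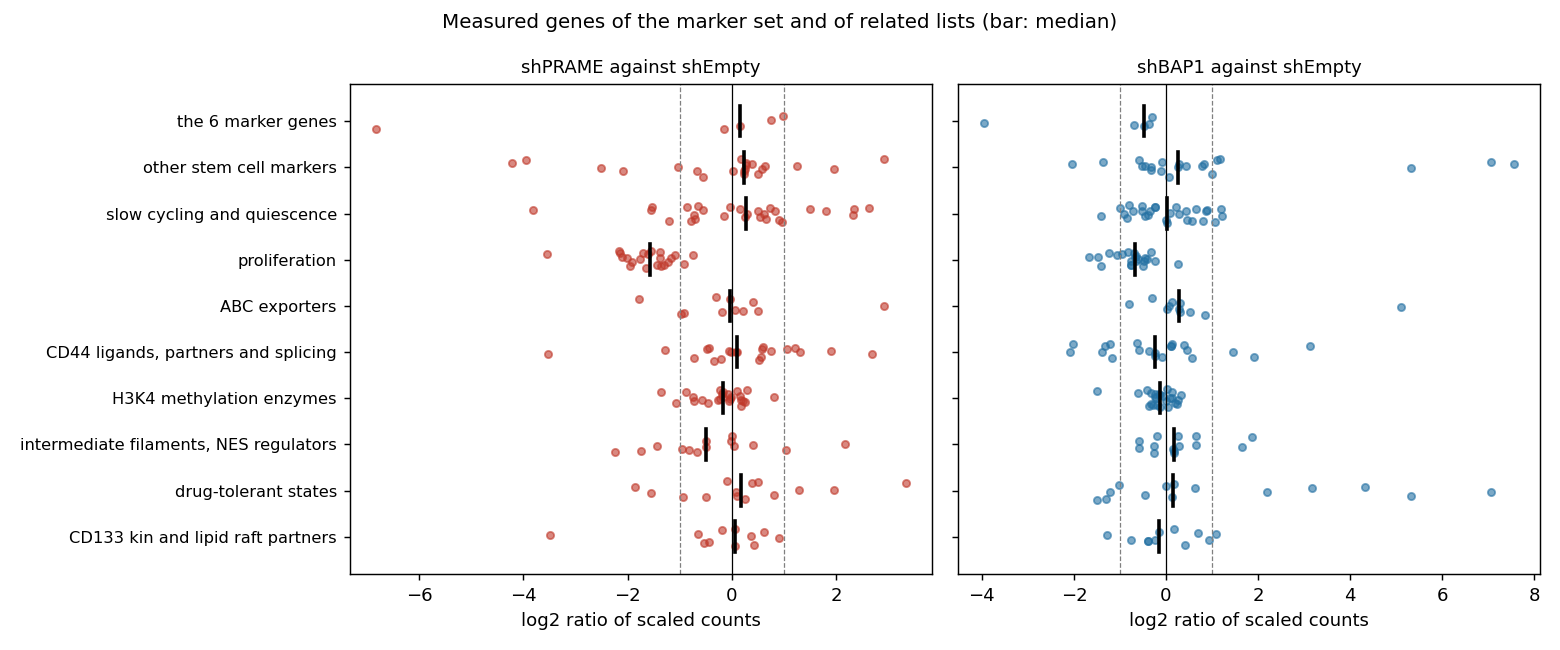
log2 ratio against shEmpty of each measured gene (points) of the marker set and of the 9 related lists, shPRAME left and shBAP1 right, with each list's median as a bar and dashed lines at 2-fold. The proliferation medians are -1.58 in shPRAME and -0.68 in shBAP1, and the point at -6.83 in the top row is PROM1.

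Since CD44, NES and ABCG2 are also expressed by connective tissue or vascular cells, markers of other cell types were read beside them. The summed level of 10 fibroblast markers was 814 CPM in shPRAME, 276 CPM in shBAP1 and 77.4 CPM in shEmpty, and COL1A2 (12250, 2529 and 119 counts in that order) made up most of it in both knockdown libraries, while COL1A1 had 23, 3 and 1 counts. Marker genes named here were chosen after their values were seen. The summed level of 10 endothelial markers was 58.5 CPM in shPRAME, 88.6 CPM in shBAP1 and 129 CPM in shEmpty, and CDH5, which defines that cell type, had no count in any library. The endothelial sums came mostly from the receptor genes KDR (572, 170 and 1476 counts), FLT1 (117, 1104 and 924) and TIE1 (359, 11 and 3). Of 10 immune markers, at 151 CPM, 65.3 CPM and 51.4 CPM, CD3E and AIF1 had no count in any library and CD68 held most of the sum. The 10 keratinocyte and epithelial markers summed to 101 CPM, 133 CPM and 99.1 CPM, with KRT1 at 0 in all. KRT18 (1173, 1133 and 1170 counts) and KRT10 (494, 789 and 632) made up most of these sums. The 15 melanocyte and melanoma markers summed to 5163 CPM in shPRAME, 2424 CPM in shBAP1 and 2832 CPM in shEmpty, with TYR at 0 in shPRAME and TYRP1 at 0 in shEmpty. Of these sums CSPG4 alone made up 3095 CPM, 447 CPM and 1295 CPM, and MITF, the lineage transcription factor gene, was at 114 CPM, 239 CPM and 310 CPM in the same order. The part of other cells in the levels of the members was not tested.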

How the data were processed

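Messenger RNA of 3 A375SM populations was sequenced as paired reads of 100 bases from directional libraries, per the labels' protocols. The authors deposited whole-number read counts, 1 column per library. The submitters' processing notes name hg19 (GRCh37), TopHat, Cufflinks, FastQC and edgeR, without saying which tool did what. How reads were counted, against which annotation and with which strand setting is not given in the sources used here. Library totals were 18456328 (shPRAME), 14181829 (shBAP1) and 19430130 (shEmpty), and a count of 0 was given a floor of 3 counts (0.164, 0.202 and 0.160 CPM in that order).

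Here the counts were scaled by TMM, computed from all 3 libraries in edgeR 4.0.16 under R 4.3.3. Ratios without a pseudocount had exact conditional binomial 95% intervals, levels had exact Poisson intervals, and calls needed a mean count of at least 50, at least 2-fold and an interval leaving out no change. The procedure was run on simulated counts that held counting error only, so that run does not cover variation between cultures. Other software was scipy 1.17.1, numpy 2.4.6, matplotlib 3.10.9 and pandas 2.3.3 in Python 3.11.15. Named were the 6 members, PRAME and BAP1, in each list up to 4 measured genes with the largest absolute log2 ratio in shPRAME and up to 2 in shBAP1, and the 3 genes nearest each measured member in centred log2 CPM (prior 0.5). The members and lists were chosen with earlier results of these data known. Chromosomes and gene order came from RefSeq (GRCh38.p14), matched for 98.9% of measured genes. Results were also computed with other scaling (DESeq2 1.42.0 size factors, upper quartiles, library totals), with minimum counts of 200, 10 or no minimum, with limits of 3-fold and 1.5-fold, with the complete interval past 2-fold, with 1 CPM added and, chosen after seeing the data, subtraction of chromosome medians.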

Additional observations from a re-analysis of the deposited data

How the results depend on the processing

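PROM1 was called lower in each of the 3 comparisons under every alternative run. No called member ratio changed sign in any alternative run. Of 90 recomputed member ratios, however, 24 fell outside the counting interval of the reported ratio. The log2 ratio of CD44 in shBAP1 against shEmpty, for example, was -0.35 with total counts, beside -0.47 (-0.50 to -0.44). The number of members called in shPRAME against shEmpty was 2 with total counts, upper quartiles or chromosome medians subtracted (KDM5B added as higher), 2 with a minimum of 10 or none (ABCB5 added as higher) and 3 at 1.5-fold (KDM5B and NES added), beside 1 as reported. In shBAP1 against shEmpty it was 2 with a minimum of 10 or none (ABCB5 higher) and 2 at 1.5-fold (NES lower), beside 1. In shPRAME against shBAP1 it was 1 at 3-fold, 4 with a minimum of 10 or none (ABCB5 lower) and 4 at 1.5-fold (CD44 higher), beside 3. Of the 163 measured list genes, 90, 72 and 91 were called at 1.5-fold and 33, 15 and 33 at 3-fold in the 3 comparisons in that order, beside 58, 39 and 57, since a lower limit admits more genes and a higher one fewer. A pseudocount of 1 CPM moved the log2 ratio of PROM1 in shPRAME to -5.14 and that of ABCB5 in shBAP1 to 2.76, and in shPRAME against shBAP1 it moved them to -1.56 and -2.26. Scaling by total counts shifted the median of all genes in shBAP1 against shEmpty by 0.12, and 49.8% of all calls there were then higher, beside 39.2%. Of 216 recomputed list medians 34 moved by over 0.1 and 10 changed sign. No paired analysis was possible because each group is 1 library. Replicates left out could not be tried for the same reason. Low counts (8 for PROM1 in shPRAME, 4 for ABCB5 in shEmpty) leave wide intervals on these folds.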
